A study of Mus musculus with 6 samples.

Results

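The genes of the ATP-sensitive potassium (KATP) channel were examined in 6 RNA-seq libraries of mouse brain. The channel genes were chosen by name as the pore genes *Kcnj8* and *Kcnj11* and the sulfonylurea receptor genes *Abcc9* and *Abcc8*. All 4 have a record in the NCBIM37 annotation, and 3 of them (*Kcnj8*, *Abcc9* and *Abcc8*) were analysed among 33460 genes. *Kcnj11* was not analysed here. All libraries came from 3 mice on postnatal day 6 (P6) with the genotype *Pdgfrb-eGFP/NG2-DsRed*, so that both groups carry the transgene Tg(Pdgfrb-eGFP)JN169Gsat/Mmucd together with the NG2-DsRed transgene. One side of each brain was used for FACS of double positive cells (3 libraries, called mural cells), and the other side for microvascular fragments caught with anti-CD31 beads after collagenase digestion (3 libraries). The reporters follow the genes *Pdgfrb* and *Cspg4* (NG2), so that the sort takes cells in which both are active, and the fragments themselves hold endothelial cells and mural cells. Nothing in the labels ties a mural cell library to the fragment library of the same animal.

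KATP channels are built from inwardly rectifying pore subunits and regulatory sulfonylurea receptors of the ABC transporter family. ATP closes the channel and Mg-ADP opens it through the receptor, so that the membrane potential follows the energy state of the cell. *Kcnj8* (Kir6.1) and *Abcc9* (SUR2) form the channel of vascular smooth muscle, where opening hyperpolarises the cell and relaxes the vessel, and both genes are widely used as markers of brain pericytes. *Kcnj11* (Kir6.2) and *Abcc8* (SUR1) form the channel of pancreatic beta cells and many neurons, which controls insulin release and excitability.

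The members lie as tandem pairs of a pore gene and a receptor gene, all on the minus strand (NCBIM37 coordinates). *Kcnj8* (ENSMUSG00000030247) spans chromosome 6 from 142513459 to 142519876 and has 1 annotated transcript with 3 exons and 2188 bp. *Abcc9* (ENSMUSG00000030249) spans 142536382 to 142650794 on the same chromosome, with 5 transcripts of 1473 to 7538 bp and 41 exons in the longest. A gap of 16505 bp separates the pair. *Kcnj11* (ENSMUSG00000070561) and *Abcc8* (ENSMUSG00000040136) lie on chromosome 7 at 53352533 to 53355607 and at 53359893 to 53435403, 4285 bp apart, and *Abcc8* has 2 transcripts of 4920 and 4952 bp with up to 40 exons.

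The promoter windows of the vascular pair are shown because both genes were higher in mural cells. They are RefSeq sequences of GRCm38.p6 on the minus strand, from 250 bases before to 50 bases after the gene start, and were found for *Kcnj8* (chr6:142571565-142571864) and *Abcc9* (chr6:142702225-142702524). Both windows are written 5′ to 3′, and capitals mark matches to the motifs searched.
Kcnj8: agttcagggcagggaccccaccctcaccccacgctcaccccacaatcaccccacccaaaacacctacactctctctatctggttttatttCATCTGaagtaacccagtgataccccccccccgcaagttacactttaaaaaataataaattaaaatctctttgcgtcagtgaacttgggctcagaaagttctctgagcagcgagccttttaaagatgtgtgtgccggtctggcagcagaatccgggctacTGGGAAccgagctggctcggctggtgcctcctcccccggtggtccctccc
Abcc9: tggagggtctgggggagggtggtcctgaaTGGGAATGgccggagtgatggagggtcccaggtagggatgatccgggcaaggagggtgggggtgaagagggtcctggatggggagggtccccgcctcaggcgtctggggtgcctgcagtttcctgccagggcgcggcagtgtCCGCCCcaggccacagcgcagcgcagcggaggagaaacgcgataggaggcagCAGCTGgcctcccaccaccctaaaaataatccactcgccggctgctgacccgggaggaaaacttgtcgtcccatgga
Each window matched NCBIM37 at a single place. The RefSeq start of *Kcnj8* lies 258 bp upstream of its start in the NCBIM37 annotation, and that of *Abcc9* lies at the annotated start. The window of *Abcc9* is rich in G and C (65.7%, above 83.6% of 32544 promoters of the same length), whereas that of *Kcnj8* has 53.3%, close to the median of 53.0%.

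The letters shared by both windows are common ones. Both hold 1 E box (CANNTG), which 72.3% of all promoters hold, and both hold 1 Rbpj core (TGGGAA), which 25.4% hold on either strand. In *Kcnj8* these lie at bases 91 to 96 and 251 to 256 of the window, and in *Abcc9* at bases 224 to 229 and 30 to 35. The *Abcc9* window also holds a Tead motif (CATTCC, 14.6% of promoters) on the opposite strand at bases 32 to 37, overlapping the Rbpj core, and an Sp1 box (GGGCGG, 35.9%) on the opposite strand at bases 172 to 177. Neither window holds TATAAA (13.6% of promoters), CCAAT (37.4%), the forkhead motif GTAAACA (3.66%), the cAMP response element TGACGTCA (1.8%) or a CArG box (1.64%). These are matches of letters only.

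Expression is given as FPKM, a level scaled to the length of the transcript and to the size of the library. The depth recovered from the values was 1.04 to 2.37 M fragments on protein-coding genes in the mural cell libraries and 5.43 to 5.95 M in the fragment libraries, so that low values are less certain in mural cells. The mural cell label was checked against markers. All 10 mural markers, from *Pdgfrb* and *Cspg4* to *Rgs5*, *Des* and *Acta2*, were higher in mural cells, as were 7 of 8 smooth muscle markers. The 12 endothelial markers summed to 1630 to 2130 FPKM in mural cells and to 2270 to 2640 in fragments, with 2 of the 12 called lower (9 at an unadjusted p under 0.05, with no limit on the ratio), so that endothelial transcripts were present in the sorted cells. The 6 fibroblast markers summed to 495, 680 and 608 FPKM in mural cells against 60.1, 69.1 and 66.3 in fragments, and 5 of the 6 were higher. The highest were the collagen genes *Col1a2*, *Col3a1* and *Col1a1*, at 221, 213 and 111 FPKM in mural cells. The paper also lists *Col1a2* and *Col3a1* among its brain mural cell-enriched genes. *Dcn* (29.3 against 3.99 FPKM) and *Lum* (7.8 against 1.26) were higher too, and *Pdgfra* (12.6 against 7.93) was not called. The 8 microglial markers, all lower, summed to 108 to 166 FPKM against 1560 to 1810. Of these marker genes none was at 0 in all mural cell libraries.

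The pore gene *Kcnj8* was far higher in sorted mural cells. The mural cell libraries had 153, 125 and 132 FPKM, and the fragment libraries had 15.4, 12.2 and 10.0 FPKM. The groups did not overlap, and the lowest mural cell library was 8.12-fold above the highest fragment library. These values rest on 539, 185 and 207 fragments in mural cells and on 140, 103 and 93 in microvascular fragments. The means were 137 ± 14.5 and 12.6 ± 2.69 FPKM (SD, n = 3), a ratio of 10.9. On the log2(FPKM + 1) scale the difference was 3.36 (SE 0.17, limma adjusted p = 8.36e-05).

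The receptor gene *Abcc9* was also higher in mural cells and was the more abundant of the pair in every library. It reached 297, 300 and 250 FPKM in mural cells, against 40.9, 32.9 and 33.4 FPKM in fragments. Again the groups were well apart, with the lowest mural cell library 6.11-fold above the highest fragment library. The means were 282 ± 28.3 and 35.7 ± 4.46 FPKM (SD, n = 3), a ratio of 7.9, and the log2 difference was 2.95 (SE 0.13, limma adjusted p = 7.21e-05). Counting error was small for this long transcript, with approximately 1443 to 3874 fragments in mural cells and 1020 to 1367 in fragments if the longest transcript is taken.

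Calls like these were made for 6.43% of the 14801 genes tested in the higher direction and for 10.1% in the lower direction, and 16.5% of all genes tested had every mural cell library above every fragment library. Both members that passed the filter on low values were called higher. The shares of 6.43% and 10.1% are the background for all list and window counts of limma calls. For counts at an unadjusted p under 0.05 no share over all genes is given, so these counts have no background here. By ratio, *Kcnj8* ranked 63 and *Abcc9* ranked 177 among the 952 higher genes, whose median ratio was 3.9. By mean FPKM in mural cells the order was turned, and *Abcc9* ranked 136 and *Kcnj8* 414 of all genes tested. The libraries are bulk samples, so fewer cells of a type and less RNA per cell cannot be told apart. The fibroblast marker sums, which hold *Col1a2* and *Col3a1*, moved with the same contrast (9.12-fold higher in mural cells). The part of fibroblasts in the values of *Kcnj8* and *Abcc9* was not tested.

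The receptor of the beta cell type, *Abcc8*, was close to the detection limit in both groups. Mural cells had 1.43, 0.569 and 0.537 FPKM, against 0.232, 0.2 and 0.273 FPKM in fragments. The groups did not overlap, but the mural cell values rest on 12, 2 and 2 fragments and the others on 5, 4 and 6. The exact Poisson 95% interval of the highest mural cell library was 0.735 to 2.49 FPKM. In the other mural cell libraries the intervals were 0.0685 to 2.04 and 0.0647 to 1.93 FPKM, and these held all 3 fragment values. Intervals cover counting error only.

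The means of *Abcc8* were 0.845 ± 0.507 FPKM in mural cells and 0.235 ± 0.0365 FPKM in fragments (SD, n = 3), a ratio of 3.6. This ratio was 2.35 without mural cell library 1. When fragments were pooled over libraries, the ratio was 4.33 with an exact 95% interval of 2.01 to 9.41, and 2.34 (0.565 to 7.34) without mural cell library 1. *Abcc8* did not pass the filter. The log2(FPKM + 1) difference was 0.55 with an exact two-sided permutation p of 0.1, the smallest that 3 against 3 libraries allow. Neuronal markers, given because neurons are known to use this receptor, summed to 126, 72.4 and 122 FPKM in mural cells, against 86.6, 118 and 101 FPKM in fragments. These ranges overlapped, and 0 of 8 tested markers were called by limma (1 higher and 3 lower at an unadjusted p under 0.05). *Map2* gave 82.8, 48.1 and 89.1 FPKM of the mural cell sums and was the only tested marker with a ratio above 1 (1.66). The median ratio of the 8 was 0.556. *Stmn2*, which the paper lists in its mural cell catalogue from several studies, had 13.0 FPKM in mural cells and 25.5 in fragments (not called). Mural cell library 1 was highest in the neuronal sum and in *Abcc8*, but library 3, close to it in the sum, was lowest in *Abcc8* (0.537 FPKM). Among the fragment libraries, library 2 was highest in the sum and lowest in *Abcc8*. The part of neuronal RNA in the *Abcc8* values was not tested.

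**Figure D1:**
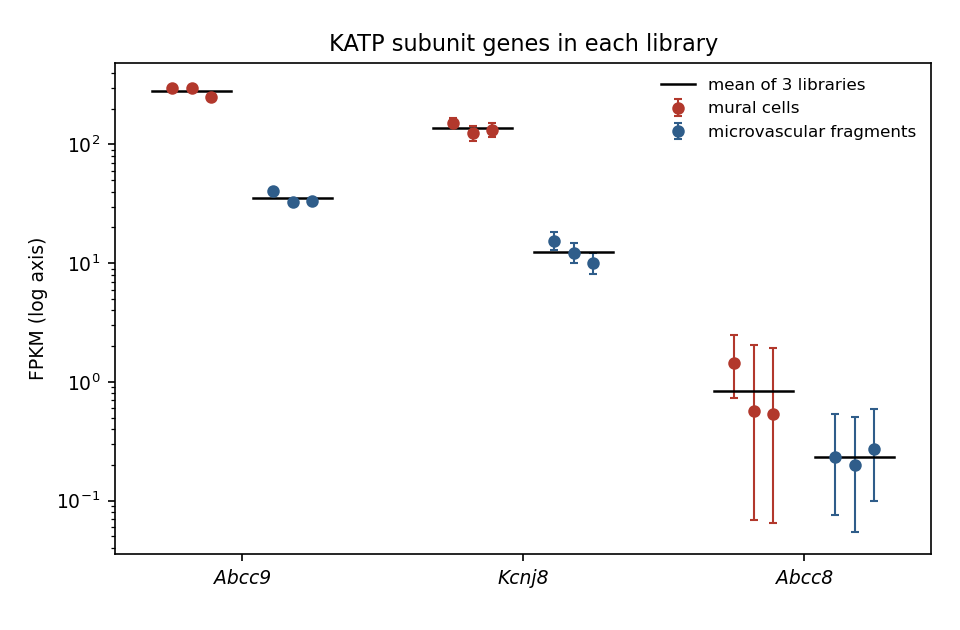
FPKM of *Abcc9*, *Kcnj8* and *Abcc8* in each library (log axis), for mural cells (red) and microvascular fragments (blue). Points are libraries 1 to 3 from left to right, bars are exact Poisson 95% intervals of the fragment counts and lines are means of 3 libraries. *Abcc9* and *Kcnj8* are separated between the groups by 6.11-fold or more, whereas for *Abcc8* the intervals of mural cell libraries 2 and 3 overlap those of the fragments and that of library 1 lies above them.

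The order of levels was thus the same in all 6 libraries, with *Abcc9* above *Kcnj8* and *Kcnj8* above *Abcc8*. The *Abcc9* to *Abcc8* ratio of FPKM compares the vascular receptor with that of the beta cell type. It came to 208, 527 and 465 in mural cells, against 176, 164 and 122 in fragments. All mural cell libraries were above all fragment libraries, with a log2 difference of 1.6 (3.04-fold, exact two-sided permutation p = 0.1, pseudocount 0.1). This difference fell to 0.35 with an overlap of the groups (exact p = 0.3) after quantile normalization, and the ratio carries the small counts of *Abcc8*. For the pore gene, the *Kcnj8* to *Abcc8* ratio was 107, 220 and 246 in mural cells, against 66.4, 61.1 and 36.8 in fragments. Comparisons that need *Kcnj11*, such as the pore to receptor ratio of the beta cell type, were not analysed here.

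The pore to receptor ratio of the vascular pair was below 1 in every library. The *Kcnj8* to *Abcc9* ratio of FPKM was 0.514, 0.417 and 0.53 in mural cells, against 0.377, 0.372 and 0.301 in microvascular fragments. The groups did not overlap, although mural cell library 2 came close to fragment libraries 1 and 2. The means were 0.487 ± 0.0612 and 0.35 ± 0.0423 (SD, n = 3). On the log2 scale the ratio was higher by 0.47 in mural cells (1.38-fold), with an exact two-sided permutation p of 0.1, the smallest possible. Since FPKM of *Abcc9* depend on how reads are shared among its 5 transcripts, the size of the ratio depends on that model.

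**Figure D2:**
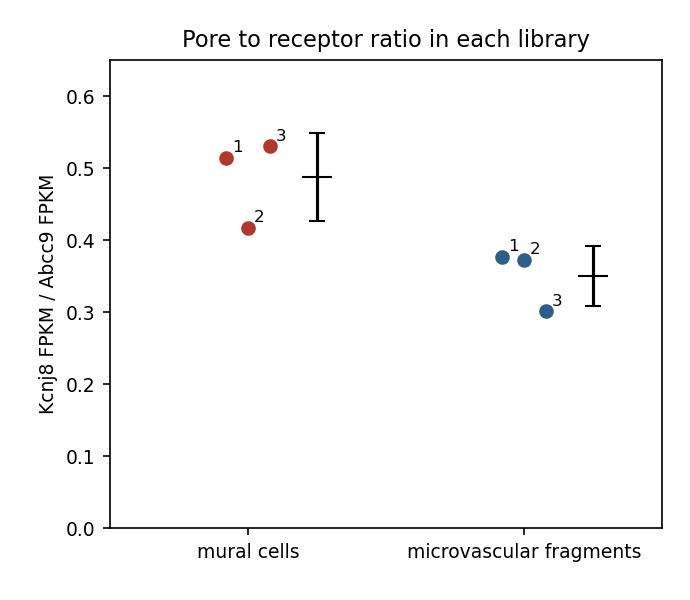
Ratio of *Kcnj8* FPKM to *Abcc9* FPKM in each library (numbered points) with the mean and SD of 3 libraries (black). The mural cell libraries lie between 0.417 and 0.53 and the fragment libraries between 0.301 and 0.377.

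The ratios of the vascular pair lay within the range of other mural genes. The ratios of mean FPKM for the 10 mural markers ran from 6.47 for *Cspg4* to 12.5 for *Acta2*, with a median of 9.1. Only *Acta2*, smooth muscle actin, had a ratio above that of *Kcnj8*, and 8 of the 10 were above *Abcc9*. Relative to the mean log2 level of these markers within each library, *Kcnj8* differed between the groups by 0.31 (exact two-sided permutation p = 0.3) and *Abcc9* by -0.16 (p = 0.5, exact), and for both genes the groups overlapped. *Abcc8* differed by -1.76, a 0.294-fold level relative to the markers, with no overlap (exact p = 0.1). After quantile normalization this difference was -0.59 (exact p = 0.3), and over 10 alternatives it ran from -2.54 to -0.59. *Pdgfrb* and *Cspg4* belong to the list and also drove the sort.

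**Figure D3:**
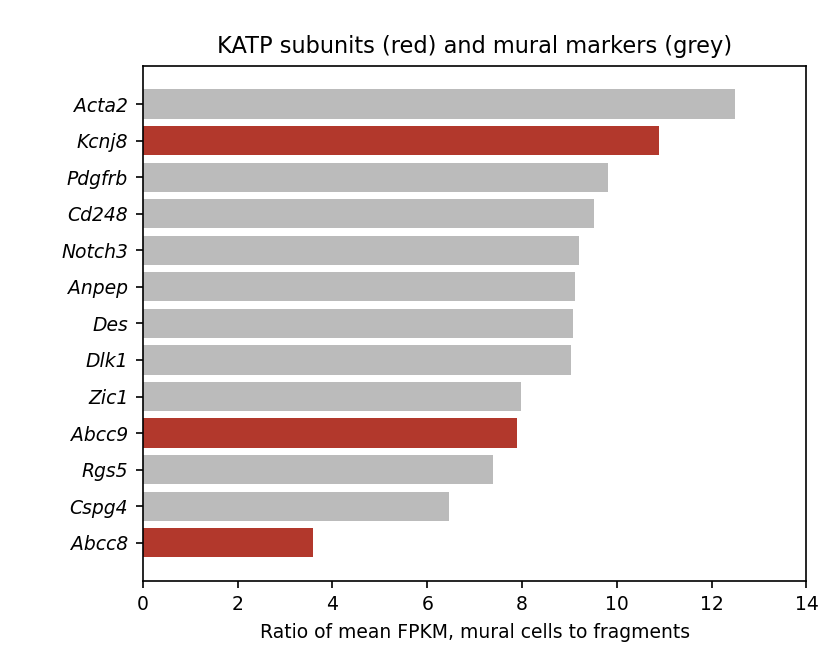
Ratio of mean FPKM in mural cells to mean FPKM in microvascular fragments (n = 3 libraries each), for the KATP subunits (red) and 10 mural markers (grey). *Kcnj8* (10.9) and *Abcc9* (7.9) lie within the range of the markers (6.47 to 12.5), and *Abcc8* (3.6) lies below it. The *Abcc8* values rest on few fragments. The pooled *Abcc8* ratio of 4.33 has an exact 95% interval of 2.01 to 9.41, which reaches into the range of the markers.

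The genes with profiles most like *Kcnj8* over the 6 libraries, by Euclidean distance of centred log2(FPKM + 1), were *Cd248* (endosialin, distance 0.24), *Pdgfrb* (the PDGF-B receptor, 0.3), the calcium-activated chloride channel gene *Ano1* (0.35), *Anpep* (aminopeptidase N, 0.38) and the sphingosine 1-phosphate receptor gene *S1pr3* (0.4). *Abcc9* ranked 20 of 14800 genes, at a distance of 0.61 against a median of 4.36. Those most like *Abcc9* were *Enpep* (aminopeptidase A, 0.17), *Pcolce* (0.26), *Lama2* (a laminin chain, 0.31), *P2ry14* (0.31) and *Anpep* (0.32), and *Kcnj8* ranked 63. The closest gene, *Enpep*, had 111, 112 and 92.9 FPKM in mural cells, against 14.8, 11.2 and 10.3 FPKM in fragments, a course close to that of *Abcc9*.

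Among the inward rectifier genes analysed, *Kcnj8* took most of the summed FPKM of mural cells. Of the summed FPKM of 14 inward rectifier genes, *Kcnj8* made up 75.6, 65.1 and 67.4% in the mural cell libraries. In the fragment libraries it made up 21.7, 15.3 and 13.3%. *Kcnj11* was not analysed and is missing from these sums and ranks. It ranked first of the 14 in every mural cell library and 2, 2 and 3 in fragment libraries 1 to 3. The most abundant of the others in both groups was *Kcnj2*, the classical strong inward rectifier of muscle and endothelium, with a mean of 24.2 FPKM in mural cells and 31.8 FPKM in fragments. *Kcnj8* had 5.64 times the FPKM of *Kcnj2* in mural cells and 0.395 times in fragments. Of the 13 other listed inward rectifiers 8 were tested. The limma calls were 1 higher and 0 lower, against 6.43% and 10.1% of all genes tested. At an unadjusted p under 0.05, with no limit on the ratio, the counts were also 1 and 0.

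The higher one was *Kcnj12*, a further strong inward rectifier (Kir2.2). It had 12.8, 13.5 and 11.5 FPKM in mural cells, against 1.05, 1.13 and 1.13 FPKM in fragments, a ratio of 11.4 (log2 difference 2.69, limma adjusted p = 0.000296). The groups were far apart, and the ratio was close to that of *Kcnj8*. The median log2 difference of the 8 was -0.38, against -0.12 over all genes tested.

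Among ABCC transporters, *Abcc9* likewise held the largest share in mural cells. It made up 76.8, 79.5 and 76.2% of the summed FPKM of 11 family genes in mural cells, against 24.5, 18.5 and 19.5% in fragments. In fragment libraries 1 to 3 it ranked 1, 2 and 3. The most abundant of the others in both groups was *Abcc5*, an exporter of cyclic nucleotides, with 41.0 FPKM in mural cells and 43.3 FPKM in fragments (not called). Of the 9 other transporters 6 were tested. The limma calls were 0 higher and 2 lower, against 6.43% and 10.1% of all genes tested. The counts without a background, at an unadjusted p under 0.05, were 1 and 3. *Abcc3*, an organic anion exporter, had 6.24, 0.832 and 1.32 FPKM against 38.2, 32.2 and 47.7 (log2 difference -3.67, limma adjusted p = 0.00215), and *Abcc6* had a ratio of 0.383 (adjusted p = 0.0131). The call of *Abcc6* was lost without fragment library 1 or 2 (adjusted p = 0.0689 and 0.0664), which leaves 1 lower gene. The median log2 difference of the list was -0.45.

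Vascular KATP channels are opened through cAMP and protein kinase A and closed through protein kinase C, and genes of this control were counted next. Of 21 listed regulators 19 were tested. The limma calls were 5 higher and 1 lower, against 6.43% and 10.1% of all genes tested. The counts without a background, at an unadjusted p under 0.05, were 11 and 1. The median log2 difference was 0.53, against -0.12 over all genes tested. The adenylyl cyclase genes *Adcy5* (9.27, 22.5 and 19.3 FPKM against 2.34, 4.02 and 3.35) and *Adcy6* (56.3, 70.9 and 54.7 against 18.6, 19.4 and 16.6) were higher by 2.02 and 1.68 on the log2 scale. The regulatory subunit genes of protein kinase A were higher for *Prkar2b* (log2 difference 2.21), *Prkar1b* (2.08) and *Prkar1a* (1.05), and *Prkar1a* had the highest level of the list at 552 FPKM in mural cells. Without mural cell library 2, in which it was highest, the ratio of *Prkar1a* fell below the limit of 2. *Adcy7* was the lower gene, with 2.55 FPKM against 25.4 FPKM (log2 difference -2.88), and it moved with the microglial markers, whose part was not tested. *Rapgef3* (Epac1), a cAMP sensor, had 101 FPKM in mural cells and 65.9 FPKM in fragments and was not called.

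The receptors that raise cAMP in vessel walls were mixed. Of 14 vasodilator receptor genes 11 were tested. The limma calls were 3 higher and 2 lower, against 6.43% and 10.1% of all genes tested. The counts without a background, at an unadjusted p under 0.05, were 3 and 4. The median log2 difference was -0.42. The adenosine receptor gene *Adora2a* had 57.0, 61.0 and 48.9 FPKM against 23.0, 23.6 and 22.4 in fragments, with no overlap (log2 difference 1.24, limma adjusted p = 0.000721). *Adora2b* (log2 difference 1.23, adjusted p = 0.0159) and the prostacyclin receptor gene *Ptgir* (1.66, adjusted p = 0.0311) were also higher. Each of them lost its call without any one of the fragment libraries, with adjusted p up to 0.0855 and 0.126. *Ptgir* also lost its call without mural cell library 2 or 3 (limma adjusted p = 0.0727 and 0.0703) and with no filter (0.0569). Of the fragment libraries only library 1 reached 1 FPKM for *Ptgir* (1.21), so it passed the filter through the mural cell libraries. The adrenergic receptor gene *Adrb1* (0.451 against 2.41 FPKM) was lower by limma. It lost its call after quantile normalization (adjusted p = 0.17) and without any one library other than mural cell library 3 (adjusted p up to 0.195). Of the mural cell libraries only library 3 reached 1 FPKM for *Adrb1* (1.11), so it passed the filter through the fragment libraries. The calls of 3 higher and 2 lower genes include *Ptgir* and *Adrb1*, whose direction the filter favoured. *Ramp2*, the partner of the adrenomedullin receptor, was the most abundant at 135 FPKM in mural cells and 181 FPKM in fragments, with *Adora2a* next.

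Several tested receptors of vasoconstrictors, which close KATP channels through protein kinase C, were higher. Of 12 genes 8 were tested. The limma calls were 6 higher and 0 lower, against 6.43% and 10.1% of all genes tested. The counts without a background, at an unadjusted p under 0.05, were 6 and 1. The median log2 difference was 2.24. The endothelin receptor gene *Ednra* had 122, 139 and 119 FPKM in mural cells, against 12, 13.7 and 10.9 FPKM in fragments (log2 difference 3.27, limma adjusted p = 5.06e-05), which is close to the level and the ratio of *Kcnj8*. The thromboxane receptor gene *Tbxa2r* had 58.5, 64.4 and 44.7 FPKM against 10.8, 4.98 and 3.85, and the neuropeptide Y receptor gene *Npy1r* had 23.7, 28.2 and 20.8 against 2.81, 3.45 and 1.45. *Adra1b*, *Agtr1a* and *Htr1b* were higher by 2.4, 2.09 and 1.25 on the log2 scale. These 3 genes were under 1 FPKM in all fragment libraries and passed the filter through the mural cell libraries alone. The filter thus fixed their direction, and the count of 6 and the median of 2.24 include them. *Htr1b* lost its call without any one fragment library (adjusted p up to 0.183). When any mural cell library was left out, these 3 genes no longer passed the filter and were not tested. The count of higher receptors was then 3.

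Voltage-gated calcium channels close when KATP channels hyperpolarise the membrane. Of 12 genes 10 were tested. The limma calls were 5 higher and 0 lower, against 6.43% and 10.1% of all genes tested. The counts without a background, at an unadjusted p under 0.05, were 6 and 1. The median log2 difference was 1.53. *Cacna1c*, the pore of the L-type channel of smooth muscle, had 49.6, 81.1 and 76.5 FPKM in mural cells, against 7.12, 11.5 and 3.9 FPKM in fragments (log2 difference 3.11, limma adjusted p = 0.00104). The accessory subunit genes *Cacna2d1*, *Cacnb3* and *Cacnb2* were higher by 2.27, 1.83 and 1.78, and the T-type pore gene *Cacna1h* by 2.11. Of the 11 genes for nucleotide supply and binding partners 8 were tested and limma called 1 higher and 0 lower (2 and 1 at an unadjusted p under 0.05). The higher one was the ankyrin gene *Ank2* (log2 difference 1.23), which anchors ion channels. *Gapdh* and *Ldha* had 209 and 218 FPKM in mural cells and 225 and 193 FPKM in fragments and were not called.

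**Figure D4:**
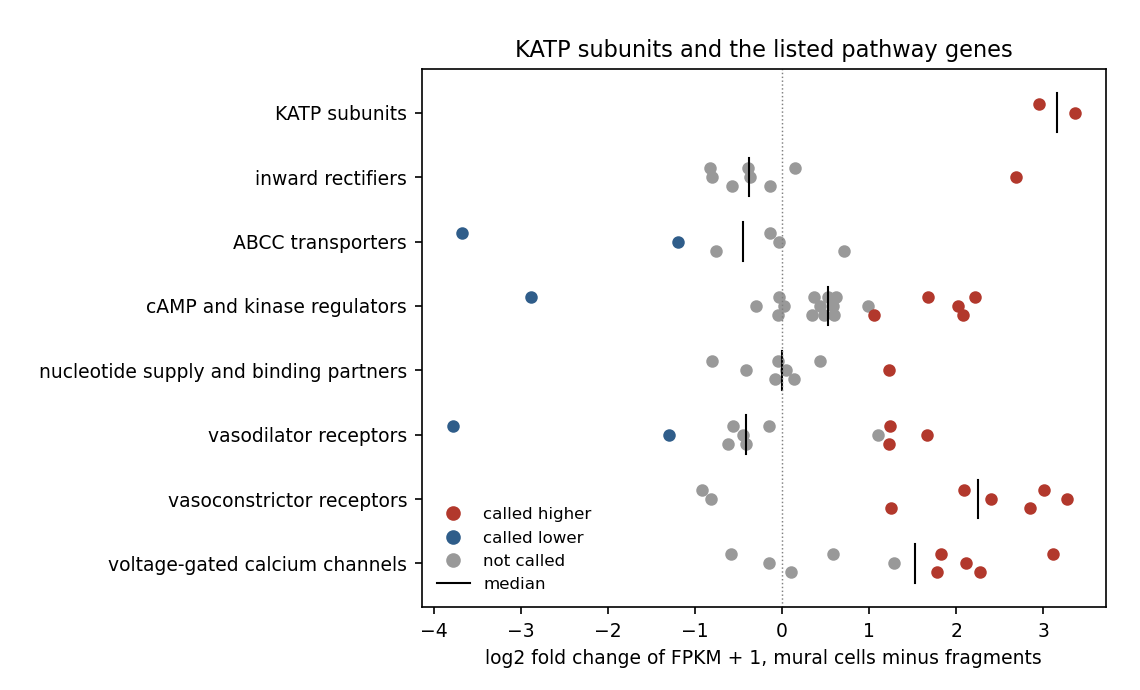
Log2 difference of FPKM + 1 between mural cells and microvascular fragments (n = 3 libraries each) for the tested genes of each list. Each point is a gene, red if called higher, blue if called lower and grey if not called, and black lines are medians. *Kcnj8* and *Abcc9* (top) lie at 3.36 and 2.95, and the medians of the other lists run from -0.45 to 2.24. The median of 2.24 is that of vasoconstrictor receptors and includes 3 genes that passed the filter through the mural cell libraries alone.

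Finally, the genes around each pair were examined within 200 kb. Around *Kcnj8* and *Abcc9* there were 10 other genes, of which 9 were analysed and 5 tested, and limma called 1 higher and 0 lower, the same counts as at an unadjusted p under 0.05. The higher gene was *St8sia1*, a sialyltransferase of ganglioside synthesis, with 19.2 ± 2.61 FPKM in mural cells and 7.93 ± 0.689 FPKM in fragments (SD, n = 3, ratio 2.43, limma adjusted p = 0.00408). *Ldhb*, the gene next to *Kcnj8*, had 41.0 ± 6.1 FPKM against 34.6 ± 12.5 FPKM and *Cmas*, on the far side of *Abcc9*, had 19.2 ± 6.39 FPKM against 25.1 ± 0.871 FPKM (SD, n = 3), and neither was called. *Recql* (ratio 1.19) and *Golt1b* (0.878) were not called. Ratios near those of *Kcnj8* and *Abcc9* were thus not found among the other tested genes of the window. Around *Kcnj11* and *Abcc8*, 8 other genes were analysed, 5 were tested, and limma called 0 higher and 1 lower (also 0 and 1 at an unadjusted p under 0.05), the lower one being *Abcc6*, whose call was lost without fragment library 1 or 2. Of the other tested genes there, *Nomo1* and *Emp3* had the highest levels in mural cells, at 91.4 and 46.0 FPKM (ratios 0.838 and 0.858, not called).

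**Figure D5:**
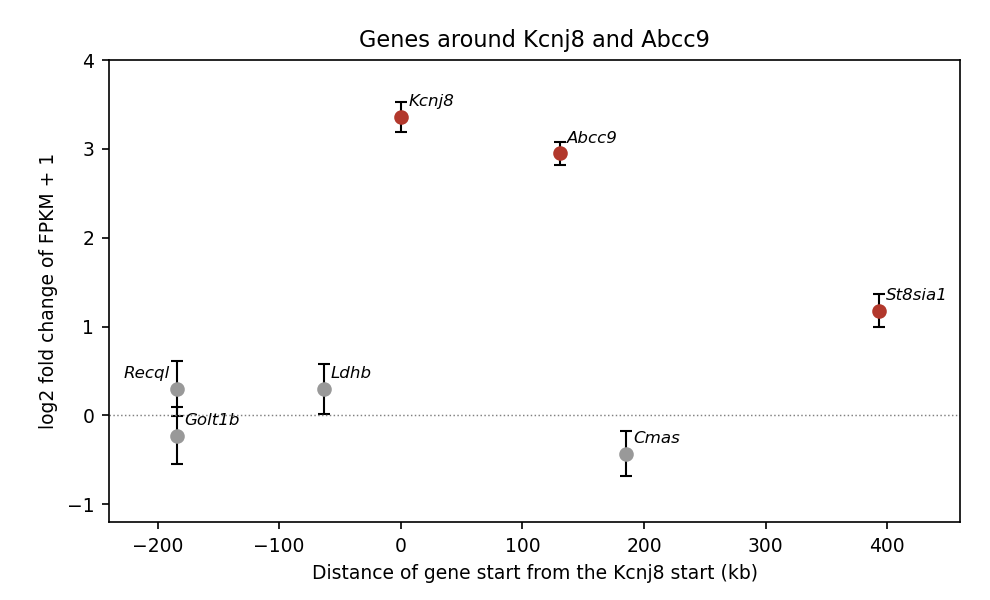
Log2 difference of FPKM + 1 between mural cells and microvascular fragments (points, with SE from limma, n = 3 libraries each) against the distance of each gene start from the *Kcnj8* start in kb, for the tested genes in the window. Red points were called higher; *Kcnj8* (3.36) and *Abcc9* (2.95) stand above *St8sia1* (1.18) and the 4 genes not called.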

How the data were processed

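RNA-seq values of 6 libraries (3 of FACS sorted mural cells and 3 of microvascular fragments) were used. The authors deposited 1 FPKM value per Ensembl gene and library. Per the labels and methods, alignment to NCBIM37 used TopHat2 2.0.4, duplicates were taken out by Picard 1.92, and Cufflinks 2.2.1 gave the FPKM. Removal of duplicates may lower the values of abundant genes. Repeated lines of 9 identifiers were merged, and symbols came from the GENCODE annotation of NCBIM37 (33116 of 33460 genes). *Kcnj11* was not analysed here.

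Since FPKM are not counts, log2(FPKM + 1) was fitted with limma 3.58.1 (R 4.3.3) with an intensity trend on the 14801 genes that reached 1 FPKM in 3 or more libraries, and p-values were adjusted by Benjamini-Hochberg. Calls needed an adjusted p under 0.05 and a ratio of mean FPKM above 2 or under 0.5. Single values per library were tested with exact two-sided permutation tests (pseudocount 0.1). The fit was also run on simulated data as a check of the code, and the outcome is not used as support here. Fragments behind a value were recovered from genes with a single transcript, where 97.8 to 98.4% of low values were whole within 0.05 fragments. Other steps used Python 3.11.15, pandas 2.3.3 and NumPy 2.4.6.

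The members, lists and markers were chosen with earlier results of these data known, and *Kcnj8* and *Abcc9* are known pericyte markers, so their direction is not independent support. Named genes are the members, the called genes of each list and window (at most the 4 with the largest and 2 with the smallest log2 difference), the 2 most abundant in mural cells per list and the 5 most like each vascular subunit. The markers and genes added beyond this rule were named after their values were seen. The *Abcc9* to *Abcc8* ratio and *Abcc8* relative to the markers were also added after seeing the data. The alternatives were median-ratio scaling, quantile normalization, other pseudocounts, no filter or a filter at an FPKM of 5, no trend, an adjusted p under 0.01, the replicate number as a block and leaving out each library. The values of 1 further called gene of the lists are not reported here.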

Additional observations from a re-analysis of the deposited data

How the results depend on the processing

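Over 14 alternatives *Kcnj8* and *Abcc9* kept their calls, with log2 differences of 3.22 to 3.5 (adjusted p 4.22e-05 to 0.0007) and 2.9 to 3.05 (2.69e-05 to 0.0007). The *Kcnj8* to *Abcc9* difference ran from 0.37 to 0.58, that of *Kcnj8* relative to the markers from 0.14 to 0.47 and that of *Abcc9* from -0.29 to -0.05 over 10 alternatives. With no filter, *Abcc8* had a log2 difference of 0.55 (limma adjusted p = 0.166). The alternatives planned for *Kcnj11*, its ratio to *Abcc8* and the ratio of both vascular to both beta cell type subunits were not run, since *Kcnj11* was not analysed.

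Genes called higher numbered 667 to 1212. Genes called lower numbered 1493, but 948 with a filter at an FPKM of 5, 845 at an adjusted p under 0.01 and 607 to 1733 when 1 library was left out, lowest without fragment library 3 (607), 1 (654) or 2 (702). Quantile normalization gave 1212 higher and 1080 lower genes, against 952 and 1493. Among the genes named with a fold change or as not called, the sign turned, when 1 library was left out, for *Abcc5* (-0.23 to 0.14, at 0.14 without fragment library 2 and 0.0 without mural cell library 1), *Ldha* (-0.08 to 0.33, negative without mural cell library 2), *Gapdh* (-0.27 to 0.1, positive without fragment library 3), *Kcnj16* (-0.95 to 0.02), *Adcyap1r1* (-0.77 to 0.21, with 0.1 without mural cell library 2), *Ldhb* (-0.02 to 0.52), *Recql* (-0.04 to 0.5) and *Golt1b* (-0.43 to 0.11), none of which was called. *Abcc6* lost its call without fragment library 1 or 2 (adjusted p = 0.0689 and 0.0664). The cause of these changes was not tested.

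Both groups carry the numbers 1 to 3. The deviations of same-numbered libraries from their group means correlated by 0.082, 0.02 and 0.045, and those of different numbers by -0.061 to 0.01. Every library thus correlated best with its own number, though weakly. Since no label ties the numbers to animals, the main tests took the libraries as unpaired. With the replicate number as a block, 900 genes were higher and 1344 lower, the log2 differences of *Kcnj8* and *Abcc9* stayed at 3.36 and 2.95 (adjusted p = 0.000473 for both), the *Kcnj8* to *Abcc9* difference at 0.47 (exact sign-flip p = 0.25, the smallest for 3 pairs), and *Ptgir*, *Adrb1* and *Htr1b* lost their calls (adjusted p = 0.0643, 0.0776 and 0.071). Depth limits *Abcc8* most, at 16 and 15 fragments per group.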

Other observations

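Several genes of the lists had 1 mural cell library apart from the others. The inward rectifier *Kcnj13* had 1.06, 18.7 and 1.19 FPKM in mural cell libraries 1 to 3 and 11.0, 7.26 and 3.81 FPKM in fragments. *Kcnj10*, the inward rectifier of astrocytes, had 4.22, 3.14 and 15.6 FPKM in mural cells and 7.64, 10.3 and 11.1 FPKM in fragments, and *Kcnj16* had 1.54, 0.785 and 5.85 against 3.35, 3.82 and 2.35. The endothelin receptor gene *Ednrb* (15.1, 9.5 and 43.5 FPKM) and the PACAP receptor gene *Adcyap1r1* (7.42, 8.71 and 31.6 FPKM) were highest in the same mural cell library. The 8 astrocyte markers summed to 257, 213 and 752 FPKM in mural cells and 301, 423 and 327 in fragments, and limma called 0 of the 8 (0 higher and 1 lower at an unadjusted p under 0.05). Without library 3, *Kcnj10* and *Ednrb* were called lower in mural cells (log2 differences -1.18 and -1.41, limma adjusted p = 0.0241 and 0.0163), and so was *Kcnj13* without library 2 (-1.88, adjusted p = 0.0243). With all libraries none of these genes was called, and they were named after their values were seen. *Kcnj8* and *Abcc9* were not raised in mural cell library 3, at 132 and 250 FPKM.

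The 8 smooth muscle markers varied between mural cell libraries, with sums of 1230, 2260 and 2450 FPKM against 266, 308 and 219 in fragments. *Kcnj8* had its highest value, 153 FPKM, in library 1, where that sum was lowest, and *Abcc9* had 297, 300 and 250 FPKM. With 3 libraries no relation was tested.

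Of the lists of other cell types, those of progenitors and blood gave these values. Of 6 oligodendrocyte progenitor markers 0 were called by limma (1 higher and 0 lower at an unadjusted p under 0.05), with sums of 47.0, 34.3 and 88.0 FPKM in mural cells and 36.0, 46.0 and 37.0 in fragments. Of 5 erythroid markers 4 were tested and 0 were called by limma, also at an unadjusted p under 0.05, with sums of 242, 149 and 182 FPKM against 185, 229 and 131.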
